A study of Mus musculus with 10 samples.

Results

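The nucleosome remodelling and deacetylase complex, NuRD, was followed through 5 of its genes in mouse embryonic stem cells that carried mutations in one of them, Mbd3. The genes were Mbd3, Mbd2, Chd4, Chd5 and Hdac2, found by their symbol in each of 4 deposited tables, and they made up 5 of the 8694 genes listed in any of these tables. RNA depleted of ribosomal RNA was sequenced, with strand kept, from E14 cells, a mouse embryonic stem cell line, and from cells of 4 mutant genotypes made from it with CRISPR/Cas9. In Mbd3abc KO (labelled Mbd3abc -/-) exon 5 of Mbd3 was mutated, in Mbd3cΔN-ab KO (labelled Mbd3cdeltaN with ab-/-) exon 2, in Mbd3ab KO (labelled Mbd3ab -/-) also exon 2, and in Mbd3c KO (labelled Mbd3c -/-) intron 2. The reference was unmutated E14, the wild type. Each of the 5 groups had 2 libraries, called biological replicates by the labels, and the sources used here do not say whether a mutant was 1 clone or several. By its title and labels the study asked which genes depend on which Mbd3 isoform.

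NuRD joins a motor that slides nucleosomes to enzymes that remove acetyl groups from histones, and it is best known as a repressor of transcription. Mbd3 and Mbd2 are alternative methyl-CpG binding domain subunits: Mbd2 binds methylated CG pairs, whereas mammalian Mbd3 binds them weakly, and a complex holds one of them or the other. Chd3, Chd4 and Chd5 are the alternative remodelling ATPases, Hdac1 and Hdac2 the deacetylases, Mta1, Mta2 and Mta3 the scaffolds, and Rbbp4 and Rbbp7 the histone binding subunits. In embryonic stem cells Mbd3 is known for its part in leaving the pluripotent state.

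Each table set one mutant beside the same 2 wild type libraries and listed almost only genes past the authors' threshold. A gene that a table does not list therefore has no level or test from it here. Separation of mutant from wild type libraries follows largely from that threshold, and adds no support to a call. It was seen in all 15 pairs of a listed NuRD core gene and a table. Levels below are normalised reads, that is, reads divided by the library's size factor, and are comparable within a table. By the scaling of the deposited signal, the other libraries behind the members' values stood at 0.710 to 1.59 times the first wild type library. This is a ratio of scaling and not of counted reads. All marker checks were limited to listed genes. Of 12 embryonic stem cell markers 8 were listed beside Mbd3abc KO, none of them at 0, and 3 of them were higher and 5 lower than in wild type. All 8 were called, 66.7% of the list beside 52.1% of all genes tested. The listed markers summed to 32146 and 36932 normalised reads in Mbd3abc KO and to 51341 and 51689 in wild type. Where a group's RNA for a gene was lower, fewer cells that make it and less RNA per cell cannot be told apart in these bulk libraries.

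Mbd3 lies on chromosome 10 of mm10 (GRCm38), from 80392541 to 80399479 on the minus strand. GENCODE M21 has 6 transcripts of it. If the labels count exons as Mbd3-201 does, which has 7, the mutated exon 2 and exon 5 are coding throughout, at 160 and 178 bases. Exon 2 is absent from Mbd3-205 and Mbd3-206, which start in intron 2 and in exon 3, while exon 5 is present, at least in part, in each of the 6. Part of intron 2 is also coding in Mbd3-203, whose exon 3 begins 84 bases earlier. The sources used here do not say which of these transcripts is isoform a, b or c. For Mbd3c KO the labels name intron 2, and they name exon 3 for no group. Exons 2 and 5 are shown, with exon 3 of Mbd3-203, which holds part of that intron. Whether the Mbd3c KO mutation lies in that part is not known here. These 3 stretches run 5′ to 3′ on the Mbd3 strand, with Mbd3-201 coding bases in capitals and intron 2 bases in lower case. They lie at chr10:80395436-80395595 (exon 2), chr10:80395064-80395285 (exon 3 of Mbd3-203) and chr10:80393893-80394070 (exon 5).
Mbd3-201 exon 2: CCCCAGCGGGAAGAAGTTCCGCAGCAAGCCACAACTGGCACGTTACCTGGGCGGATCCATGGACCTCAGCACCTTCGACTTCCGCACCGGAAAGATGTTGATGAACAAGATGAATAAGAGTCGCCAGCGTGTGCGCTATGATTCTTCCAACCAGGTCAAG
Mbd3-203 exon 3: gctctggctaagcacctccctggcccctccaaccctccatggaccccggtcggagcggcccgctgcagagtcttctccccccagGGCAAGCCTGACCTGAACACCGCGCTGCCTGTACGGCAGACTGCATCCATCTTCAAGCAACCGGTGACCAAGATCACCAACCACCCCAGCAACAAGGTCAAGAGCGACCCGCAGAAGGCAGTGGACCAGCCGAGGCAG
Mbd3-201 exon 5: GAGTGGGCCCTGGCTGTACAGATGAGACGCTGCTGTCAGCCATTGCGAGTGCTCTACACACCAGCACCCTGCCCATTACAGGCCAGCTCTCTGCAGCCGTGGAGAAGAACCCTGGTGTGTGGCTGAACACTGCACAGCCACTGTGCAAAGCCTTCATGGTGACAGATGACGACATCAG

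**Figure D1:**
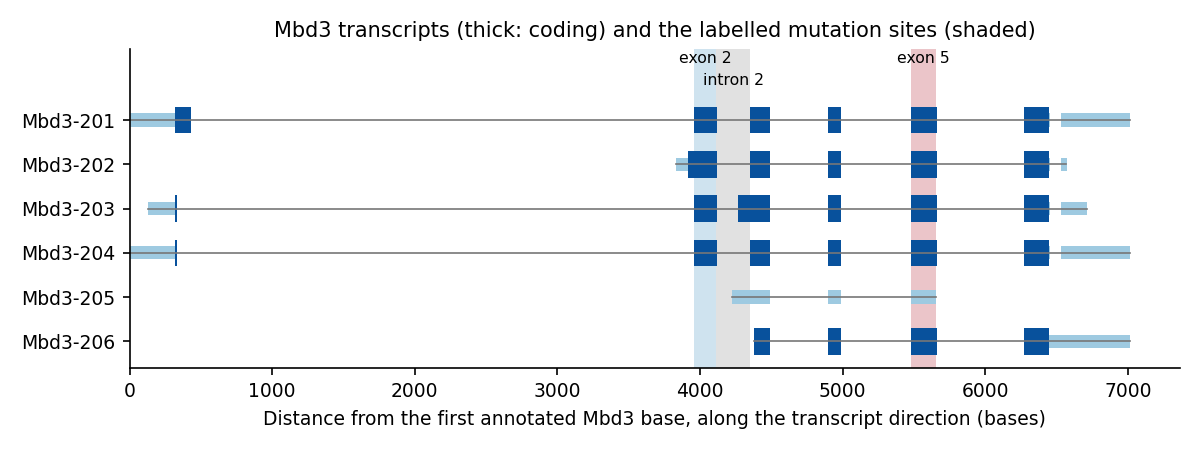
Transcripts of Mbd3 in GENCODE M21, by distance in bases from the first annotated base, with thick boxes for coding bases, thin boxes for other exon bases and shading for the exon or intron the labels name as mutated (exon 2 in Mbd3cΔN-ab KO and Mbd3ab KO, intron 2 in Mbd3c KO, exon 5 in Mbd3abc KO). Exon 2 is missing from Mbd3-205 and Mbd3-206, and exon 5 is reached by all 6 transcripts.

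Mbd3 RNA fell in the 3 mutants whose tables list it, most in Mbd3abc KO. Of all genes tested, 52.1% of 15622 were called in Mbd3abc KO, 41.5% of 14429 in Mbd3cΔN-ab KO and 3.35% of 13201 in Mbd3ab KO. Mbd3 stood at 108 and 158 normalised reads in Mbd3abc KO, against 1775 and 1689 in wild type, which left 7.70% of the wild type mean. In Mbd3cΔN-ab KO it had 299.6 and 292 normalised reads, against 1685 and 1614 in wild type of that table, or 17.9%. Mbd3ab KO kept the largest share, 38.3%, with 506 and 638 normalised reads against 1523 and 1468 in wild type. In each table both mutant libraries lay below both wild type libraries, and the 2 libraries of a mutant stayed close to each other on the scale of the fall. In raw reads, which are the counts behind these levels, the mutant libraries held 112 and 166 in Mbd3abc KO, 249 and 345 in Mbd3cΔN-ab KO, and 620 and 424 in Mbd3ab KO, beside 1379 and 2071 in wild type.

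By DESeq2, in the authors' deposited table, the log2 fold change of Mbd3 was -3.59 ± 0.23 (SE) in Mbd3abc KO, with adjusted p = 2.56e-51. It was -2.44 ± 0.13 in Mbd3cΔN-ab KO, with adjusted p = 1.02e-74 by DESeq2 in the authors' deposited table. In Mbd3ab KO the authors' deposited table gave -1.31 ± 0.20, with adjusted p = 5.96e-08 by DESeq2. Mbd3 reads were counted over the exons of the same transcript of 1580 bases in each of these tables, so the values do not say which isoform they come from. A mutated transcript that is still made counts where it shares those exons, and bases outside them are not counted. Mbd3 is not listed for Mbd3c KO, where 38 of 10759 genes, or 0.353%, were called. When the listed genes of the Mbd3ab KO table were tested again, the Mbd3 call held by edgeR's quasi-likelihood test with TMM scaling (adjusted p = 0.0323) and by DESeq2 without one or the other Mbd3ab KO library (adjusted p 1.59e-21 to 1.65e-12). It was lost by edgeR without TMM scaling (adjusted p = 0.0772) and by limma (0.0736 to 0.0810). Those edgeR and limma tests called 0 of all 443 listed genes, so this loss was not particular to Mbd3. The call was also lost by DESeq2 without one or the other wild type library, with log2 fold changes of -1.34 to -1.28.

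**Figure D2:**
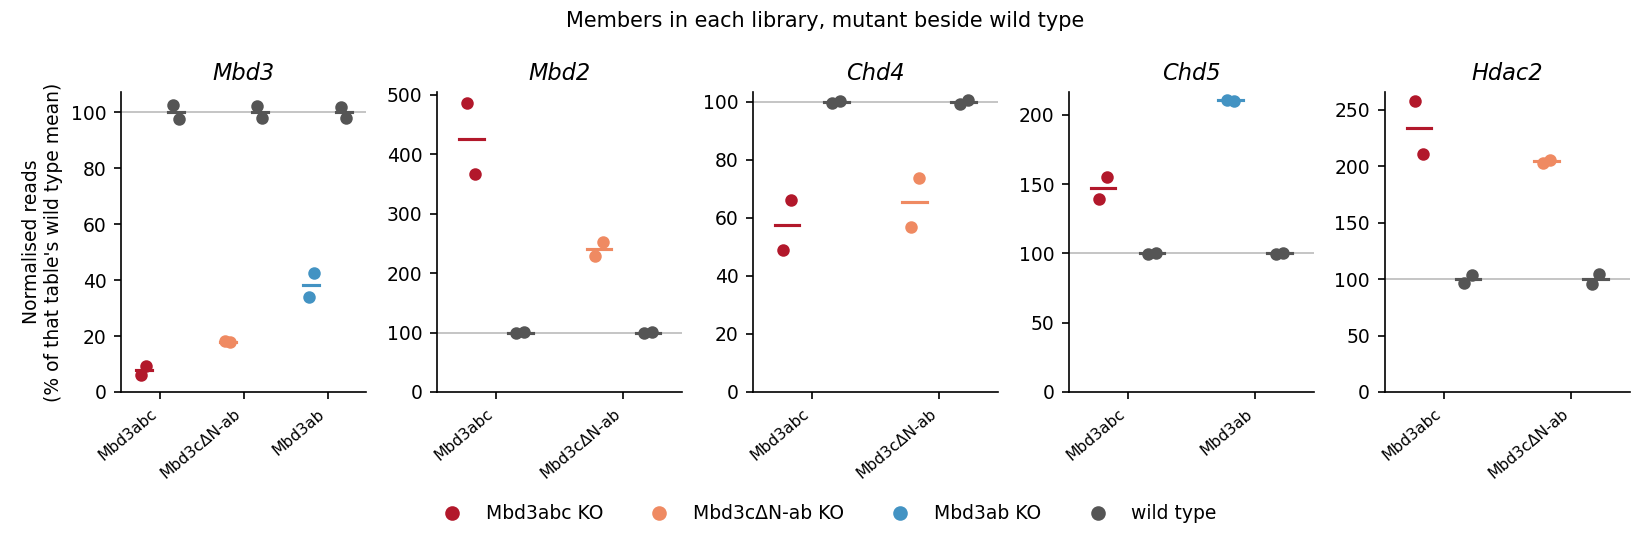
Normalised reads of each gene in every library, as a percentage of the wild type mean of the same table, with mutant libraries left of the wild type libraries they were compared with. Points are libraries and bars are means of 2. Mbd3 keeps 7.70%, 17.9% and 38.3% of wild type in Mbd3abc KO, Mbd3cΔN-ab KO and Mbd3ab KO. No mutant library overlaps its wild type in any panel, which follows largely from showing only genes past the authors' threshold.

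The mutants were also set against each other in 3 pairs, over genes listed in both tables and with the wild type libraries sharing the estimate of spread. Mbd3 was lower in Mbd3abc KO than in Mbd3cΔN-ab KO, at 7.70% and 17.9% of wild type, a log2 difference of -1.22 (95% interval -1.67 to -0.77) with adjusted p = 0.0260 by edgeR. Of the 5503 genes tested in that contrast 5.51% were called, 2.24% as lower. This call was lost in several alternatives. By edgeR on the mutant libraries alone adjusted p was 0.0994, in a test that called 1 gene higher and 7 lower of 5503. It was also lost without one Mbd3abc KO library (log2 difference -0.97) and without one Mbd3cΔN-ab KO library (-1.24). The same held without one or the other wild type library (-1.22). Mbd3 was also lower in Mbd3abc KO than in Mbd3ab KO, by a log2 difference of -2.31 (95% interval -2.93 to -1.69), with adjusted p = 0.00267 by edgeR over 382 genes, of which 29.1% were called, 19.4% as lower. That call held in every one of 11 alternatives, whose adjusted p reached at most 0.0259.

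Between the 2 genotypes mutated in exon 2 the difference in Mbd3 did not pass by the chosen test. Mbd3cΔN-ab KO held 17.9% of wild type and Mbd3ab KO 38.3%, a log2 difference of -1.09 (95% interval -1.57 to -0.61) with adjusted p = 0.0616 by edgeR over 363 genes, of which 1.1% were called. The DESeq2 test of the same reads gave adjusted p = 0.000575, and edgeR on genes with a mean of at least 100 normalised reads gave 0.0473.

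Mbd2, the other methyl-CpG binding domain subunit and the closest relative of Mbd3, is counted on chromosome 18. It moved the opposite way to Mbd3 in the mutants whose tables list it. It had 290.0 and 219 normalised reads in Mbd3abc KO, against 59.2 and 60.4 in wild type. In Mbd3cΔN-ab KO it had 129.9 and 144 normalised reads, against 56.2 and 57.7 in wild type. All 4 mutant libraries lay above the wild type pair of their table, and the Mbd3abc KO libraries lay above those of Mbd3cΔN-ab KO.

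Mbd2 rose 4.26-fold in Mbd3abc KO and 2.41-fold in Mbd3cΔN-ab KO. By DESeq2 in the authors' deposited table the log2 fold change was 2.01 ± 0.27 (SE) in Mbd3abc KO, with adjusted p = 1.57e-12. In Mbd3cΔN-ab KO the authors' deposited table gave 1.20 ± 0.25, with adjusted p = 1.3e-05 by DESeq2, a call lost whichever library was left out (DESeq2 adjusted p 0.0509 to 0.215). Mbd2 is not listed for Mbd3ab KO or Mbd3c KO. Between Mbd3abc KO and Mbd3cΔN-ab KO the log2 difference in Mbd2 was 0.82 (95% interval 0.31 to 1.33), with adjusted p = 0.0658 by edgeR.

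Per kilobase of transcript, the balance of Mbd2 to Mbd3 RNA differed between the groups. The ratio of Mbd2 to Mbd3 reads per kilobase was 2.30 and 1.19 in the Mbd3abc KO libraries, 0.372 and 0.423 in those of Mbd3cΔN-ab KO, and 0.0286 and 0.0307 in wild type. As a share of the 2 genes together, Mbd2 made up 69.7% and 54.3% in Mbd3abc KO, 27.1% and 29.7% in Mbd3cΔN-ab KO, and 2.78% and 2.98% in wild type. The groups did not overlap in this share, although 2 libraries against 2 cannot give an exact two-sided permutation p below 0.333. The sum of both genes stayed far below wild type: it was 226 and 219 normalised reads per kilobase in Mbd3abc KO against 1156 and 1102 in wild type, and 260.2 and 263 in Mbd3cΔN-ab KO against 1097 and 1053 in wild type.

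Chd4, the remodelling ATPase of NuRD with the most reads per kilobase here, fell in both of these mutants. The gene lies on chromosome 6, from 125096163 to 125130501 on the plus strand, and the small RNAs Mir7045 and Gm23751 lie within it on the same strand. It had 5223 and 7070.1 normalised reads in Mbd3abc KO, against 10646 and 10736 in wild type, 1.74-fold lower. In Mbd3cΔN-ab KO it had 5803 and 7515 normalised reads, against 10104 and 10261 in wild type, 1.53-fold lower. The mutant libraries were spread more widely than the wild type pair, and all of them lay below it. The DESeq2 log2 fold change in the authors' deposited table was -0.78 ± 0.21 (SE) in Mbd3abc KO, with adjusted p = 0.000458. It was -0.59 ± 0.18 in Mbd3cΔN-ab KO, with adjusted p = 0.00379 by DESeq2 in the authors' deposited table, and this call was lost without one or the other wild type library (DESeq2 adjusted p 0.122 to 0.142). Between the 2 mutants the log2 difference was -0.19 (95% interval -0.62 to 0.25; edgeR adjusted p = 0.506).

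Chd5, the ATPase best known from neurons and testis, rose where it is listed, in Mbd3abc KO and Mbd3ab KO. It lies on chromosome 4, from 152338651 to 152390194 on the plus strand, where Gm13645 overlaps it on the opposite strand. In Mbd3abc KO it had 287 and 319.6 normalised reads against 206 and 206 in wild type, 1.47-fold higher. In Mbd3ab KO it had 375 and 373 normalised reads against 177 and 179 in wild type, 2.11-fold higher. Both mutant pairs lay above wild type, and the Mbd3ab KO pair was closely spaced. The tables counted Chd5 over 2 transcripts, NM_001081376 for Mbd3abc KO and NM_029216 for Mbd3ab KO, which gave the second wild type library 253 and 252 raw reads. The authors' deposited table gave DESeq2 log2 fold changes of 0.55 ± 0.17 (SE) in Mbd3abc KO, with adjusted p = 0.00405, and of 1.002 ± 0.21 in Mbd3ab KO, with adjusted p = 0.000336. Neither call held in every alternative. On the listed genes with all libraries, DESeq2 gave adjusted p = 0.0859 in Mbd3abc KO. In Mbd3ab KO edgeR on all libraries gave 0.106, in a test that called 0 of all 443 listed genes. Both calls were also lost by DESeq2 without one or the other wild type library. The log2 fold changes were then 0.530 to 0.531 in Mbd3abc KO and 0.977 to 0.996 in Mbd3ab KO.

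Between Mbd3abc KO and Mbd3ab KO the log2 difference in Chd5 was -0.51 (95% interval -1.01 to -0.01), with adjusted p = 0.118 by edgeR. Chd3, the third ATPase, fell in the mutants in which Chd4 fell. It had 487 and 398 normalised reads in Mbd3abc KO against 698 and 646 in wild type, 1.52-fold lower (DESeq2 adjusted p = 0.00305 in the authors' deposited table). In Mbd3cΔN-ab KO it had 259.9 and 305 normalised reads against 662 and 617 in wild type, 2.27-fold lower (DESeq2 adjusted p = 3.68e-10 in the authors' deposited table). The Mbd3abc KO call of Chd3 was lost without one or the other wild type library (DESeq2 adjusted p 0.228 to 0.365) and without one Mbd3abc KO library (0.144). Chd3 was lower relative to wild type in Mbd3cΔN-ab KO than in Mbd3abc KO, the reverse of Mbd3, but the log2 difference of 0.57 (95% interval 0.18 to 0.97) had adjusted p = 0.0798 by edgeR. Per kilobase Chd4 supplied 92.4% and 95.3% of the Chd3 and Chd4 reads in Mbd3abc KO, 96.2% and 96.5% in Mbd3cΔN-ab KO, and 94.5% and 94.96% in wild type.

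Hdac2, one of the complex's deacetylase pair, rose in Mbd3abc KO and Mbd3cΔN-ab KO. It lies on chromosome 10, from 36974544 to 37001888 on the plus strand. It had 2010.5 and 1645 normalised reads in Mbd3abc KO, against 750.5 and 811 in wild type, 2.34-fold higher. In Mbd3cΔN-ab KO it had 1509 and 1530.4 normalised reads, against 712 and 775 in wild type, 2.04-fold higher. All 4 mutant libraries lay well above the wild type pair. By DESeq2 in the authors' deposited table the log2 fold change was 1.21 ± 0.18 (SE) in Mbd3abc KO, with adjusted p = 4.38e-11. It was 1.02 ± 0.12 in Mbd3cΔN-ab KO, with adjusted p = 1.1e-14 by DESeq2 in the authors' deposited table. Between the 2 mutants the log2 difference was 0.20 (95% interval -0.14 to 0.53; edgeR adjusted p = 0.360). Both calls held in all 9 other tests of the listed genes, which adds little, since genes were listed for passing the authors' test on these libraries. By edgeR on all libraries, 4097 of the 8141 genes listed for Mbd3abc KO were called higher and 3707 lower. For Mbd3cΔN-ab KO 2838 and 2671 of 6000 were. The partner of Hdac2, Hdac1, is not listed in any table.

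Because Mbd2 binds CG pairs when they are methylated, and Mbd3 belongs to the same family, the 250 bases before the start of Chd5 and of Hdac2, the members that rose and have a printed promoter, are shown with each CG pair in capitals. They come from RefSeq (GRCm38.p6), 5′ to 3′ on the plus strand, at chr4:152338401-152338650 and chr10:36974294-36974543.
Chd5 promoter: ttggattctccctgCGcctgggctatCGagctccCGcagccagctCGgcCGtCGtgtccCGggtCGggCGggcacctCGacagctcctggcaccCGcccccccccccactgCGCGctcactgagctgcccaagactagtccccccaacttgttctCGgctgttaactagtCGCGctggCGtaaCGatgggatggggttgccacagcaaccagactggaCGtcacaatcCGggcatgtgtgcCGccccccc
Hdac2 promoter: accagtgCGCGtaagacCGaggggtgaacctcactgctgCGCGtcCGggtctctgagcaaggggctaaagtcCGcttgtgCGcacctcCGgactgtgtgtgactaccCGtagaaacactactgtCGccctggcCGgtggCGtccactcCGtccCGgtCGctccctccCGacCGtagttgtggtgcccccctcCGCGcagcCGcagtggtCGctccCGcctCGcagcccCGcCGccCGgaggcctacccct

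The Chd5 window holds 21 CG pairs and the Hdac2 window 27. Of 32851 promoter windows of this length in the RefSeq table, 16.3% hold at least as many as Chd5 and 8.56% at least as many as Hdac2, and the median is 6. Genes that fell were also rich in them, with 39 in the window of Mta1 (1.56% of windows hold as many), 23 in that of Chd4 (13.3%) and 14 in that of Mbd3 (29.4%). These are counts of letters: methylation and binding were not measured.

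**Figure D3:**
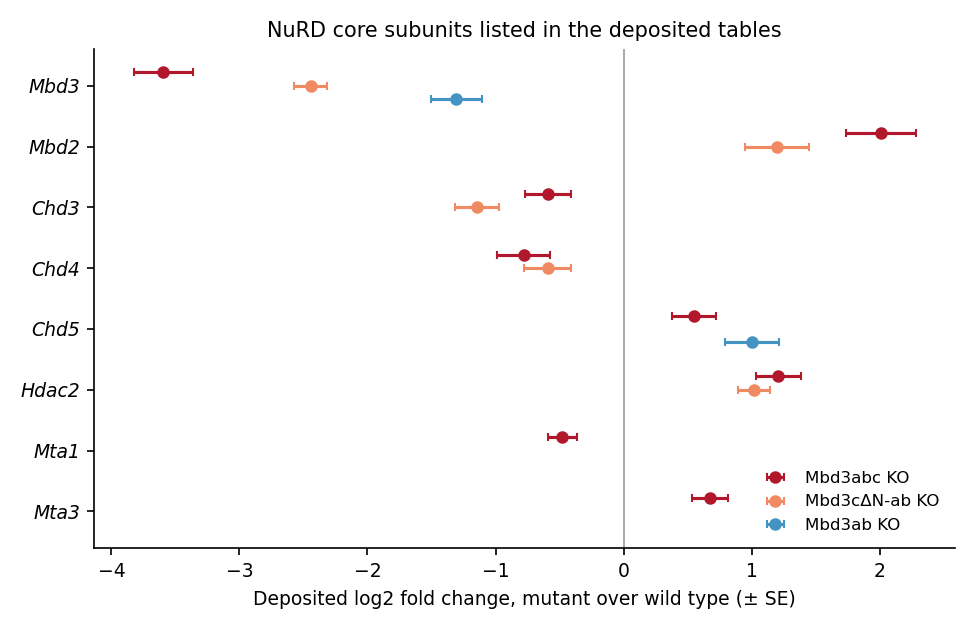
DESeq2 log2 fold changes of the mutant over wild type, with SE, for the 8 NuRD core genes that the authors' deposited tables list, by mutant. Mbd3, Chd3, Chd4 and Mta1 lie below 0 and Mbd2, Chd5, Hdac2 and Mta3 above 0 wherever they are listed.

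Of 15 genes of the NuRD core, the 5 members included, 8 were called in Mbd3abc KO (4 higher, 4 lower), 5 in Mbd3cΔN-ab KO (2 higher, 3 lower), 2 in Mbd3ab KO (1 higher, 1 lower) and 0 in Mbd3c KO. These shares, 53.3%, 33.3%, 13.3% and 0%, stood beside 52.1%, 41.5%, 3.35% and 0.353% of all genes tested. By direction, 27.1% of all genes tested were called higher and 24.9% lower in Mbd3abc KO, 21.1% and 20.4% in Mbd3cΔN-ab KO, 2.05% and 1.3% in Mbd3ab KO, and 0.316% and 0.0372% in Mbd3c KO. In Mbd3abc KO and Mbd3cΔN-ab KO the core was called about as often as genes in general. The median deposited log2 fold change of the called core genes was 0.04 in Mbd3abc KO, -0.59 in Mbd3cΔN-ab KO and -0.15 in Mbd3ab KO, beside 0.46, 0.37 and 0.88 over all genes listed as called. Called genes lie away from 0, so such a median turns on the direction of a few genes, Mbd3 among them. In Mbd3abc KO it fell in the gap between Mta1 at -0.48 and Chd5 at 0.55. These medians show no common shift, and those of the other short lists below have the same limit. The 4 tables share their wild type libraries. Without one or the other wild type library, DESeq2 tests of the listed genes called fewer core genes in Mbd3abc KO, Mbd3cΔN-ab KO and Mbd3ab KO. They called fewer of all listed genes too, so a call lost in this way is not particular to a NuRD gene. The 0 of Mbd3c KO is a count of listed genes from the authors' DESeq2 test. None of the 15 is listed there, so no other test of them could be run.

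The scaffold genes split in Mbd3abc KO. Mta3 rose 1.61-fold, with 2374 and 2054 normalised reads in Mbd3abc KO against 1362 and 1395 in wild type (DESeq2 adjusted p = 6.36e-06 in the authors' deposited table). Mta1 fell 1.40-fold, with 1496 and 1624 normalised reads in Mbd3abc KO against 2214 and 2143 in wild type (DESeq2 adjusted p = 8.28e-05 in the authors' deposited table). Neither pair overlapped wild type, but both calls were lost without one or the other wild type library (DESeq2 adjusted p 0.0882 to 0.336). The scaffold Mta2, the histone binding subunits Rbbp4 and Rbbp7, the bridging subunits Gatad2a and Gatad2b, and Cdk2ap1 are, with Hdac1, the 7 core genes listed in no table. Within Mbd3abc KO the same library of the pair stood farther from the wild type mean for Mbd3, Mbd2, Chd4, Hdac2, Mta1 and Mta3, and the other one for Chd5 and Chd3.

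Per kilobase the order of the subunits changed between groups. In Mbd3abc KO Mta3 led with a mean of 1294 normalised reads per kilobase, followed by Chd4 with 963 and Hdac2 with 919, whose ranges overlapped, then Mta1 with 567, Mbd2 with 138, Mbd3 with 84.4, Chd3 with 61.1 and Chd5 with 32.1. In wild type of the Mbd3abc KO table Chd4 led with a mean of 1675 on the same scale, followed by Mbd3 with 1096, Mta3 with 806 and Mta1 with 791, whose ranges overlapped, then Hdac2 with 393, Chd3 with 92.8, Mbd2 with 32.5 and Chd5 with 21.8. Mbd3 thus stood in place 6 of these 8 genes in Mbd3abc KO and in place 2 in wild type. In Mbd3cΔN-ab KO, where 5 of them are listed, the order was Chd4 with 1043, Hdac2 with 764, Mbd3 with 187, Mbd2 with 74.4 and Chd3 with 39.0, so Mbd3 stayed above Mbd2.

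**Figure D4:**
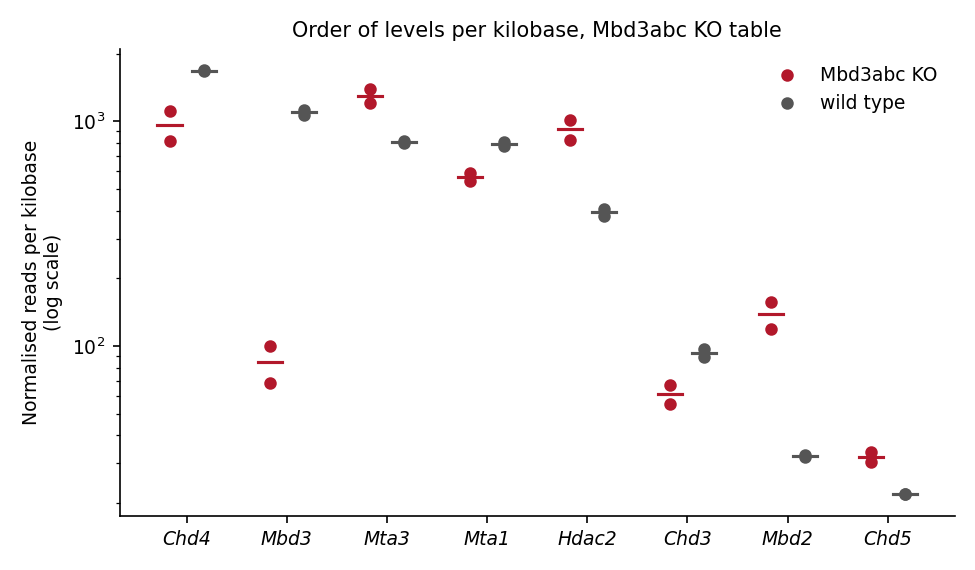
Normalised reads per kilobase of the counted transcript (log scale) for the 8 NuRD core genes of the Mbd3abc KO table, with Mbd3abc KO left of wild type. Points are libraries and bars are means of 2; Mbd3 falls to 84.4 in Mbd3abc KO, against 1096 in wild type, and ends below Mbd2, which reaches 138.

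In Mbd3abc KO and Mbd3cΔN-ab KO the direction of change of called genes ran with the GC content of the counted transcript. Called genes were put in 5 equal classes by GC, from class 1, the lowest, to class 5. In class 1 98.4% were higher in Mbd3abc KO and 99.1% in Mbd3cΔN-ab KO, and in class 5 10.3% and 6.15% were. Hdac2, at 44.4% GC, lay in class 2, where 86.0% of called genes were higher in Mbd3abc KO and 93.0% in Mbd3cΔN-ab KO, so its direction was that of most genes like it in GC. Chd3 (56.1%), Chd4 (52.9%) and Mta1 (57.2%) also went the way of most genes of their class in Mbd3abc KO, where 20.4% of class 4, which holds Chd3 and Chd4, and 10.3% of class 5, which holds Mta1, were higher. In Mbd3cΔN-ab KO Chd3 fell in class 4, where 14.2% were higher, and Chd4 in class 3, where 41.7% were. Mbd3, at 62.9%, lay in class 5, where most genes were lower too, and its log2 fold change was below those of all but 0.249% of that class in Mbd3abc KO and 0.337% in Mbd3cΔN-ab KO. Mbd2, at 56.5%, rose in class 4, where 20.4% of called genes were higher in Mbd3abc KO and 14.2% in Mbd3cΔN-ab KO. Chd5 (57.4%) and Mta3 (54.6%) rose in Mbd3abc KO in class 5 and class 4, where 10.3% and 20.4% were higher. The part of GC content in these results was not tested.

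**Figure D5:**
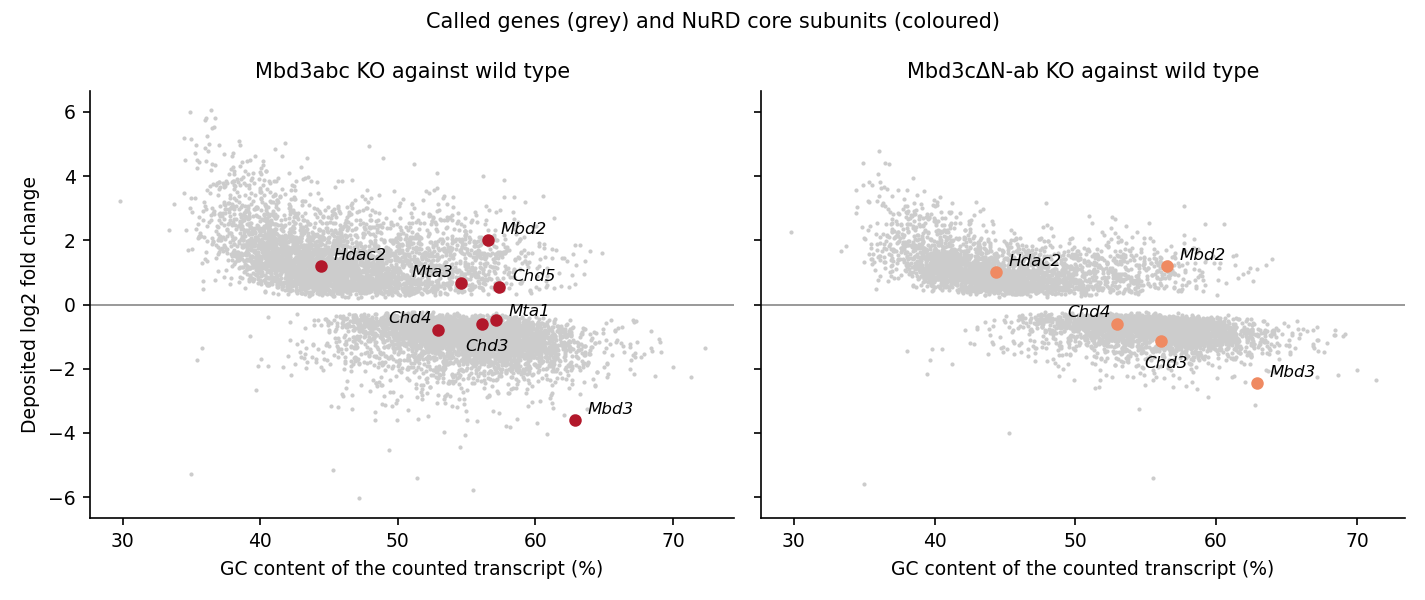
Deposited log2 fold change against GC content of the counted transcript for genes called in Mbd3abc KO (left) and Mbd3cΔN-ab KO (right), with called genes in grey and NuRD core genes coloured and named. Hdac2 lies among the low GC genes that are mostly higher, while Mbd2 lies above 0 at a GC content where 20.4% and 14.2% of called genes are higher.

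Among genes that work with NuRD, or resemble its parts, calls went in both directions. Of 18 genes for NuRD partners, 8 were called in Mbd3abc KO (5 higher, 3 lower) and 8 in Mbd3cΔN-ab KO (4 higher, 4 lower). That is 44.4% of the list in each, near the 52.1% and 41.5% of all genes tested, and the median log2 fold changes of those called were 0.69 and -0.05, beside 0.46 and 0.37 over all genes listed as called. Zfp219, a zinc finger protein, had 541 and 640.1 normalised reads in Mbd3abc KO against 2069 and 1899 in wild type, and 739.9 and 759.7 in Mbd3cΔN-ab KO against 1963 and 1815 in wild type. Bcl11b, a zinc finger regulator known from T cells, was higher in both mutants but rested on few reads. It had 58.0 and 103 normalised reads in Mbd3abc KO against 7.73 and 4.90 in wild type, and 32.5 and 19.5 in Mbd3cΔN-ab KO against 7.33 and 4.67 in wild type. The DESeq2 log2 fold change in the authors' deposited table was 1.29 for Ikzf2 in Mbd3abc KO (adjusted p = 0.0497) and -0.68 for Bend3 in Mbd3cΔN-ab KO (adjusted p = 1.75e-07). The calls of Ikzf2 and, in Mbd3cΔN-ab KO, of Bcl11b were lost when DESeq2 was run on the listed genes (adjusted p 0.182 and 0.0768), and that of Bend3 without one or the other wild type library (0.122 to 0.169). A list of 12 methyl-CpG binding genes and their relatives included Mbd3 and Mbd2, and Mbd5, Mbd6, Setdb1 and Setdb2. Of the 12, 9 were called in Mbd3abc KO (6 higher, 3 lower), 8 in Mbd3cΔN-ab KO (5 higher, 3 lower) and Mbd3 alone, lower, in Mbd3ab KO. These were 75.0% and 66.7% of the list in Mbd3abc KO and Mbd3cΔN-ab KO, with medians of 0.74 and 0.67. Zbtb33, which encodes Kaiso, had 642 and 450.3 normalised reads in Mbd3abc KO against 92.7 and 98.7 in wild type, and 342 and 312 in Mbd3cΔN-ab KO against 88.0 and 94.3 in wild type.

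Of 10 CHD remodellers, Chd3, Chd4 and Chd5 included, 5 were called in Mbd3abc KO (3 higher, 2 lower), 6 in Mbd3cΔN-ab KO (2 higher, 4 lower) and Chd5 alone, higher, in Mbd3ab KO. These were 50% and 60% of the list in Mbd3abc KO and Mbd3cΔN-ab KO, beside 52.1% and 41.5% of all genes tested, with median log2 fold changes of 0.55 and -0.49. Chd1, a remodeller of active genes, had 3318 and 3367 normalised reads in Mbd3abc KO against 1384 and 1308 in wild type, and Chd9, a relative, had 2209 and 3741 in Mbd3abc KO against 1112 and 1036 in wild type. In Mbd3cΔN-ab KO Chd1 had 2042 and 2303 normalised reads against 1313 and 1250.3 in wild type, and Chd9 had 1630.3 and 1790 in Mbd3cΔN-ab KO against 1056 and 990.0 in wild type. The direction in this family thus differed from one member to the next.

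Of 11 histone deacetylase genes 8 were called in Mbd3abc KO (2 higher, 6 lower) and 4 in Mbd3cΔN-ab KO (1 higher, 3 lower). These were 72.7% and 36.4% of the list, beside 52.1% and 41.5% of all genes tested, with median log2 fold changes of -0.78 and -0.67. Hdac2 was the one that was higher in both, and Hdac9, which was higher in Mbd3abc KO, rested on few reads, with 50.3 and 40.1 normalised reads in Mbd3abc KO against 6.44 and 2.45 in wild type. Hdac6, a cytoplasmic deacetylase, fell 2.37-fold, with 1004 and 976 normalised reads in Mbd3abc KO against 2492 and 2199 in wild type. In Mbd3cΔN-ab KO Hdac6 had 1308 and 1297 normalised reads against 2365 and 2102 in wild type. The DESeq2 log2 fold change in the authors' deposited table was -1.25 for Hdac11 in Mbd3abc KO and -0.71 for Hdac4 in Mbd3cΔN-ab KO.

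Of 23 subunits of the Sin3, CoREST and NCoR corepressors, which use the same class of deacetylases, 16 were called in Mbd3abc KO (7 higher, 9 lower) and 11 in Mbd3cΔN-ab KO (5 higher, 6 lower). These were 69.6% and 47.8% of the list, beside 52.1% and 41.5% of all genes tested, with median log2 fold changes of -0.48 and -0.36. Arid4b, a Sin3 subunit, had 801 and 779 normalised reads in Mbd3abc KO against 59.2 and 49.7 in wild type, and 327 and 429 in Mbd3cΔN-ab KO against 56.2 and 47.5 in wild type. Its relative Arid4a had 715 and 487 in Mbd3abc KO against 198 and 163 in wild type, and 432 and 382 in Mbd3cΔN-ab KO against 188 and 156 in wild type. Rcor2, a CoREST subunit abundant in embryonic stem cells, had 911 and 1001 in Mbd3abc KO against 3988 and 3774 in wild type, and 1219 and 2103 in Mbd3cΔN-ab KO against 3785 and 3607 in wild type. Without one library the DESeq2 calls of Chd1, Chd9, Hdac6, Hdac4 and Arid4a in Mbd3cΔN-ab KO (adjusted p 0.0508 to 0.173) and of Hdac9 and Hdac11 in Mbd3abc KO (0.0667 and 0.191) were lost as well. None of these partner, deacetylase or corepressor genes is listed for Mbd3ab KO or Mbd3c KO. Of all genes tested only 3.35% and 0.353% were called there, so few calls would be found in lists of this size.

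Markers of cell state moved in the same tables, and their part in the results on NuRD genes was not tested. Of 12 embryonic stem cell markers 8 were called in Mbd3abc KO (3 higher, 5 lower), 7 in Mbd3cΔN-ab KO (1 higher, 6 lower) and none in Mbd3ab KO or Mbd3c KO. These were 66.7% and 58.3% of the list in Mbd3abc KO and Mbd3cΔN-ab KO, beside 52.1% and 41.5% of all genes tested. In Mbd3ab KO and Mbd3c KO 3.35% and 0.353% of all genes tested were called. Pou5f1, which encodes Oct4, had 2816 and 4647 normalised reads in Mbd3abc KO against 10868 and 11648 in wild type, and 3973 and 6551 in Mbd3cΔN-ab KO against 10315 and 11133 in wild type. Lin28a, Klf2 and Utf1 were lower in both as well, with deposited DESeq2 log2 fold changes of -1.48, -1.35 and -1.29 in Mbd3abc KO and -0.76, -1.16 and -0.88 in Mbd3cΔN-ab KO. Klf4 was higher in both, at 0.95 in Mbd3abc KO and 0.43 in Mbd3cΔN-ab KO, and Sox2 and Tdgf1 were higher in Mbd3abc KO, at 0.48 and 0.38, all as deposited DESeq2 log2 fold changes. These 3 were named after their values were seen, and the calls of Sox2 and Tdgf1 in Mbd3abc KO and of Klf4 in Mbd3cΔN-ab KO were lost without one or the other wild type library (DESeq2 adjusted p 0.212 to 0.527). The 7 listed markers summed to 26961 and 32516 normalised reads in Mbd3cΔN-ab KO and to 48553 and 49004 in wild type.

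Of 12 primitive endoderm and trophectoderm markers 3 were called in Mbd3abc KO (Krt8, Krt18 and Dab2, higher), 2 in Mbd3cΔN-ab KO (Krt8 higher, Tfap2c lower), 3 in Mbd3ab KO (Krt8 and Krt18 higher, Tfap2c lower) and Krt18 alone in Mbd3c KO, at 307 and 286 normalised reads against 75.1 and 98.1 in wild type. In that order these were 25%, 16.7%, 25% and 8.33% of the list, beside 52.1%, 41.5%, 3.35% and 0.353% of all genes tested. The 3 listed in the Mbd3abc KO table summed to 1263 and 658 normalised reads in Mbd3abc KO and to 211 and 275 in wild type. The keratin Krt8 had 669 and 322 normalised reads in Mbd3abc KO against 81.1 and 126 in wild type, 488 and 203 in Mbd3cΔN-ab KO against 77.0 and 121 in wild type, and 314 and 214 in Mbd3ab KO against 69.6 and 109.8 in wild type. Sums in the other tables were 651 and 598 in Mbd3cΔN-ab KO against 1212 and 1197 in wild type, and 1030.4 and 964 in Mbd3ab KO against 1187 and 1208 in wild type, where Tfap2c leads. In Mbd3ab KO the calls of Krt8, Krt18 and Tfap2c were lost by edgeR on the listed genes (adjusted p 0.127 to 0.191). That test called 0 of all 443 listed genes.

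Of 10 fibroblast markers 2 were called in Mbd3abc KO (Thy1 higher, Col1a1 lower) and 3 in Mbd3cΔN-ab KO (Thy1 higher, Col1a1 and Acta2 lower). These were 20% and 30% of the list, below the 52.1% and 41.5% of all genes tested. The listed markers summed to 574 and 589.6 normalised reads in Mbd3abc KO against 228 and 209.6 in wild type, most of it Thy1. In Mbd3cΔN-ab KO they summed to 340.5 and 386 against 227 and 207 in wild type. None of the listed markers of these 3 lists was at 0 in any library. Col1a1, a collagen gene of this list, had 25.1 and 26.7 normalised reads in Mbd3abc KO against 48.9 and 48.1 in wild type. Its call was lost by edgeR (adjusted p = 0.0527) and by DESeq2 on the listed genes (0.259). In Mbd3cΔN-ab KO the calls of Col1a1 and Acta2 were lost by DESeq2 on the listed genes (adjusted p 0.114 and 0.217).

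The genes whose levels ran most like those of Mbd3 were sought among 340 genes listed in the same 3 tables, by the root mean square difference of their log2 levels relative to wild type over 8 libraries. The nearest were Tmem40, at 0.271, Zfp862-ps at 0.423, Actn3 at 0.425, Frem2 at 0.460 and Jak3 at 0.471, against a median of 3.25 over all 340. Tmem40 stood at -3.78 on the log2 scale relative to wild type in Mbd3abc KO, -2.26 in Mbd3cΔN-ab KO and -1.06 in Mbd3ab KO. For Mbd2, over 5502 genes and 6 libraries, the nearest were Atp2b1 at 0.0874, Snap23 at 0.0881 and Ergic2 at 0.101, against a median of 1.67. These genes share libraries and wild type with the members, and likeness is given as a description.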

How the data were processed

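RNA-seq of 10 libraries in 5 groups was used, from 4 tables, 1 per mutant. TopHat2, HOMER, DESeq2 and the mm10 build are named in the submitters' processing notes, without versions. Per the file headers, HOMER counted reads in exons on the minus strand setting, condensed transcripts to genes and applied no adjustment. Per the labels' protocols the libraries were strand-specific and depleted of ribosomal RNA with reagents of NEB and Clontech, and the sources used here do not say which library received which. The authors deposited a normalised read signal per library, scaled within each table, and DESeq2's log2 fold change with SE, p-value and adjusted p-value. The deposited score column (the Wald statistic) was not used. The table whose name carries no plain genotype was taken as Mbd3cΔN-ab KO because it was the one group left. Read columns name groups, so columns were assigned to groups and not to replicate numbers.

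Within a library every deposited signal value was a multiple of one smallest step (100% of values within 0.1 reads), and division by it gave whole reads, except in the Mbd3c KO table, which lists no NuRD core gene. Total depth is unknown, since unlisted genes have no reads here, and p-values measure the spread between these libraries. Levels are reads divided by size factors derived from the deposited mean. Folds are ratios of group means, and the deposited log2 fold changes are the authors'.

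Calls against wild type are the authors', at an adjusted p below 0.05. The number of genes tested was derived from the deposited p-values and adjusted p-values. The 3 contrasts between mutants used edgeR's quasi-likelihood test (edgeR 4.0.16, R 4.3.3) on recovered reads of genes listed in both tables, with Benjamini-Hochberg adjustment, and were tested on simulated data. Intervals are 95% intervals of that fit. Alternatives used DESeq2 1.42.0, limma 3.58.1 (pseudocounts 1 and 10), TMM scaling, an adjusted p of 0.01, at least 1.5-fold, a mean of at least 100 normalised reads and leaving out each library. The tests against wild type run again on listed genes are over selected genes.

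The members and the 9 gene lists were chosen with earlier results of these data known. Named were the members, the other core genes wherever listed, the 3 genes of each other list with the largest deposited log2 fold change per table, the 5 genes nearest to Mbd3 and the 3 nearest to Mbd2. Exons came from GENCODE M21 and promoters from RefSeq (GRCm38.p6). Promoters were matched for Mbd3, Chd4, Chd5, Hdac2 and Mta1 of the 8 listed core genes. Of called genes, 98.9% to 99.8% were matched to a GC content.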

Additional observations from a re-analysis of the deposited data

Results flagged for a closer look

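For 2 results the effect differed between groups by a test of the difference itself, both for Mbd3 and both by edgeR's quasi-likelihood test with Benjamini-Hochberg adjustment over the genes listed in both tables. Between Mbd3abc KO and Mbd3cΔN-ab KO the log2 difference was -1.22, with adjusted p = 0.0260, and both Mbd3abc KO libraries lay below both Mbd3cΔN-ab KO libraries relative to wild type. Between Mbd3abc KO and Mbd3ab KO it was -2.31, with adjusted p = 0.00267, again with no overlap of libraries. All groups held 2 libraries, so an outlying library cannot be told from its partner. With a mutant library left out, the first log2 difference ran from -1.52 to -0.97 and the second from -2.61 to -2.06. The call of the first was lost in several alternatives, as given above.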

How the results depend on the processing

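No paired analysis was possible because the mutants' read columns carry no replicate numbers. Against wild type, counts of called core genes kept within 1.5 times of 8 in Mbd3abc KO, 5 in Mbd3cΔN-ab KO and 2 in Mbd3ab KO at an adjusted p of 0.01, at 1.5-fold, with the filter at 100 normalised reads and in a DESeq2 test of the listed genes. Leaving out 1 library gave 4 to 7 in Mbd3abc KO, 3 to 4 in Mbd3cΔN-ab KO and 0 to 2 in Mbd3ab KO. In Mbd3ab KO edgeR called 0 core genes and limma 0 with either pseudocount, although all 443 listed genes had an unadjusted p under 0.05 in each and DESeq2 called 2 core genes, and edgeR with TMM called 1. TMM scaling moved the median log2 fold change of the list genes by -0.33 in Mbd3ab KO. It moved it by no more than 0.1 elsewhere. For the contrasts between mutants, the number of members called was 0 on mutant libraries alone between Mbd3abc KO and Mbd3cΔN-ab KO, against 1 in the test as reported. Over all 5503 genes the mutant libraries alone gave 1 call higher and 7 lower, against 180 and 123 in the test as reported. With a library left out, the call of Mbd3 in this contrast was not always kept. Between Mbd3cΔN-ab KO and Mbd3ab KO the number of members called was 1 by DESeq2 and 1 with the filter at 100 normalised reads, against 0. The sign of Chd4 between Mbd3abc KO and Mbd3cΔN-ab KO turned to 0.016 and 0.013 on the log2 scale without one Mbd3abc KO library or one Mbd3cΔN-ab KO library. With all libraries it was -0.19, and the lowest value with a library left out was -0.42. No other direction changed in the alternatives run. The cause was not tested. Core genes of Mbd3c KO could not be tested again, as none is listed. Mbd2 in wild type rests on 46 and 74 reads, which limits its precision.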
